A study of Mus musculus with 9 samples.

Results

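The genes described here encode the aryl hydrocarbon receptor (AHR) and the proteins that hold, partner or restrain it: Ahr, Arnt, Arnt2, Hsp90aa1, Hsp90ab1, Ptges3, Ahrr and Tiparp. They were chosen by name, from the known makeup of the AHR complex and of its feedback loop, with earlier results of these data known. All 8 were found among the 48795 genes of the table, and all 8 had a mean of 10 or more and were tested. Ahrr reached that mean through its WT FICZ libraries.

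AHR is a transcription factor that rests in the cytoplasm, held ready to bind ligand by HSP90 and the co-chaperone p23. A ligand sends it to the nucleus, where it leaves the chaperones, pairs with ARNT and binds DNA at short elements with the core GCGTG. Among the genes it then induces are those for AHRR, which competes for ARNT and represses, and TIPARP, a mono-ADP-ribosyltransferase that marks AHR and shortens its activity. In the gut epithelium AHR senses dietary and microbial compounds.

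RNA-seq was carried out on colon organoids, three-dimensional cultures grown from crypts embedded in Matrigel, kept in WENR medium, which contains Wnt3a, EGF, Noggin and R-spondin and maintains stem cells. Organoids were derived either from wild type (WT) mice or from VilCre Ahr fl/fl mice (AHR KO), in which Cre under the Villin promoter deletes floxed Ahr in epithelial cells, so that any cell without Villin keeps the gene. Cultures received the solvent DMSO or 5 nM FICZ, a high-affinity AHR ligand, for 4 h, which gave WT DMSO (n = 2), WT FICZ (n = 3), AHR KO DMSO (n = 2) and AHR KO FICZ (n = 2). The methods describe 3 biological replicates. Ages of the mice are not given in the sources used here. The replicate numbers are those of the sample descriptions, which match the column names of the values. Those in the sample titles differ.

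The values are normalised read counts, which summed to between 23177058 and 25033827 per library, from an estimated 21.7 to 30.2 M reads. All 10 epithelial markers were present in every group, with sums of 343321 to 394369 normalised counts. Of markers of other cells, Ptprc, Adgre1, Lum, Sox10 and S100b were at 0 in every library, and endothelial markers summed to at most 5.27. Immune markers summed to 476 to 713, nearly all of it the lysosomal gene Cd68 at 475 to 712, with AHR KO above WT under FICZ (545 to 713 against 476 to 518) and the genotypes overlapping under DMSO. Fibroblast markers summed to 57.5 to 111 in WT and 19.4 to 39.1 in AHR KO. Most of this was Pdgfrb (15.3 to 110.1), with no other fibroblast marker above 4.34. Neuron and glia markers summed to 61.7 to 94.8 in WT and 15.5 to 50.5 in AHR KO. Most of this was Elavl4 (11.3 to 85.8), with no other marker of that list above 9.26. The groups of both sums did not overlap between genotypes, but each sum rests mainly on 1 gene. Groups this small, here and below, can lie apart without a difference, and the share of all genes that do so was not counted. Of the 10 epithelial markers, 5 were called lower in AHR KO than in WT under DMSO, where 9.05% of all genes were called in either direction. Under FICZ, 5 were called lower and 1 higher, where 20.0% of all genes were called (limma, adjusted p under 0.05). With FICZ, 4 of the 10 (Cdx1, Cdx2, Lgals4 and Elf3) were called higher in WT, against 15.1% of all genes. The part of these shifts in the differences below was not tested. In bulk RNA, fewer cells of a type and less RNA per cell cannot be told apart.

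Levels are compared between genes only per kb of exon. Averaged over the 9 libraries, Hsp90ab1 was highest at 27274 normalised counts per kb, followed by Hsp90aa1 at 5983, Ptges3 at 2925, Tiparp at 592, Arnt at 212, Ahr at 173, Ahrr at 17.3 and Arnt2 at 2.26. This placed the chaperones between the 97.3 and 99.8 percentiles of 12713 genes, Tiparp at 83.5, Arnt at 61.0, Ahr at 55.5, Ahrr at 14.9 and Arnt2 at 1.2. The chaperones did not overlap each other or any other member in any library. Lower down the order moved with the group: Tiparp ranged from 244 to 1313 per kb, all above Arnt (200 to 221), whereas Ahr (127 to 234) overlapped Arnt, and Ahrr (0 to 60.1) overlapped Arnt2 (0.953 to 3.83). With the length of the longest transcript the order of the means was the same, but Arnt (371 to 409) then overlapped Tiparp (254 to 1366) and lay above Ahr (141 to 260).

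**Figure D1:**
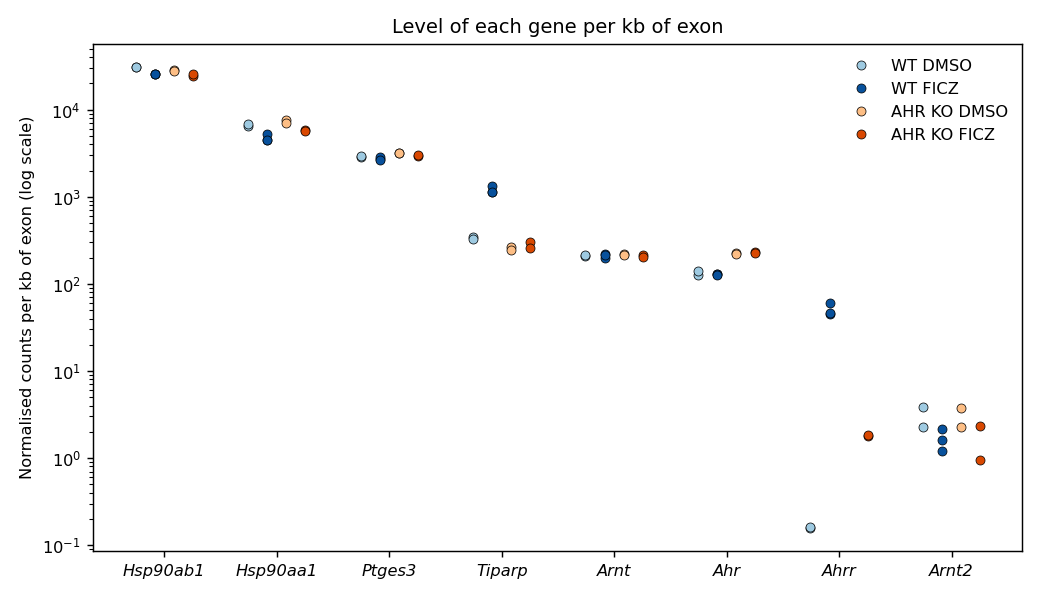
Normalised counts per kb of exon (log axis) for each gene, ordered by the mean over the 9 libraries, with 1 point per library coloured by group. Hsp90ab1, Hsp90aa1 and Ptges3 lie above all other members, and Ahrr spans the widest range, with its 2 AHR KO DMSO libraries at 0 and not drawn.

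Ahr (ENSMUSG00000019256, chr12:35497974-35535038, GRCm38, minus strand, protein-coding) encodes the receptor and is the gene targeted in AHR KO. In WT it stood at 786.5 and 858.0 normalised counts under DMSO and at 791, 798 and 783 under FICZ. In the libraries labelled AHR KO it stood at 1404 and 1346 under DMSO and at 1443 and 1387 under FICZ. FICZ groups overlapped DMSO groups in WT and in AHR KO, while all 4 AHR KO libraries lay above all 5 WT libraries. The fitted FICZ change was 0.96-fold in WT (95% interval 0.874 to 1.06, adjusted p = 0.539) and 1.03-fold in AHR KO (0.926 to 1.14, adjusted p = 0.714). The genotype difference was 1.67-fold under DMSO (1.51 to 1.86, adjusted p = 0.000194) and 1.79-fold under FICZ (1.63 to 1.97, adjusted p = 1.61e-05). A count summed over the gene does not show which exons the transcripts hold, so AHR KO and WT stand here for the labels.

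The ratio of Ahr RNA to Arnt RNA followed Ahr. Counts of RNA from the targeted gene do not give the amount of receptor. Per kb, Ahr stood at 0.611 to 0.648 of Arnt in WT DMSO, 0.586 to 0.640 in WT FICZ, 1.03 to 1.04 in AHR KO DMSO and 1.09 to 1.10 in AHR KO FICZ. With the longest transcript as length, the same ratios were 0.352 to 0.389 in WT and 0.619 to 0.660 in AHR KO, so that the separation of genotypes held and the side of 1 did not.

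Arnt (ENSMUSG00000015522, chr3:95434388-95497240, plus strand) encodes the partner with which AHR binds DNA, shared with the hypoxia factors. It stood at 1674 and 1720 normalised counts in WT DMSO, at 1605, 1769 and 1723 in WT FICZ, at 1752 and 1695 in AHR KO DMSO and at 1722 and 1639 in AHR KO FICZ. The 4 groups overlapped throughout. Its fitted FICZ change had intervals of 0.913- to 1.10-fold in WT (adjusted p = 0.992) and 0.882- to 1.08-fold in AHR KO (adjusted p = 0.732), and its genotype difference had intervals of 0.919- to 1.12-fold under DMSO and 0.904- to 1.08-fold under FICZ.

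Arnt2 (ENSMUSG00000015709, chr7:84246278-84410176, minus strand), the paralogue of Arnt best known from neural tissue, had low counts. It stood at 17.4 and 29.4 normalised counts in WT DMSO, 16.4, 9.20 and 12.5 in WT FICZ, 28.7 and 17.5 in AHR KO DMSO, and 7.33 and 17.9 in AHR KO FICZ. The 3 WT FICZ libraries lay below both WT DMSO libraries, and the AHR KO groups overlapped. The fitted change was -0.82 on the log2 scale in WT (interval -1.84 to 0.20, adjusted p = 0.203) and -0.90 in AHR KO (-2.02 to 0.22, adjusted p = 0.234), so neither was called. The CV within a group was 28.3 to 59.2%.

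The HSP90 genes stood lower with FICZ, and Hsp90aa1 differed most. Hsp90aa1 (ENSMUSG00000021270, chr12:110690605-110702728, minus strand), the stress-inducible cytosolic HSP90, stood at 25842 and 27007 normalised counts in WT DMSO and at 17552, 20775 and 17824 in WT FICZ. In AHR KO it stood at 30148 and 27577 under DMSO and at 22669 and 22292 under FICZ. The FICZ libraries lay below the DMSO libraries in each genotype. The fitted fall was to 0.706 of the DMSO level in WT (interval 0.628 to 0.794, adjusted p = 0.00122) and to 0.780 in AHR KO (0.686 to 0.886, adjusted p = 0.016).

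The fall in WT was called under all 21 alternative settings. In AHR KO the call was lost when a trend with GC content and length was removed (log2 -0.21, adjusted p = 0.109), and without AHR KO DMSO replicate 1 (adjusted p = 0.138), AHR KO FICZ replicate 1 (0.051) or AHR KO FICZ replicate 3 (0.0721). The difference between the genotypes in the Hsp90aa1 response was -0.14 on the log2 scale (interval -0.39 to 0.11, adjusted p = 0.873), so that a difference of either sign remained within the interval. Under FICZ, Hsp90aa1 was 1.2-fold higher in AHR KO than in WT (1.07 to 1.35, adjusted p = 0.032) with no overlap of libraries, a call kept in 15 of 21 settings and lost without either of WT FICZ replicates 1 (adjusted p = 0.0916) and 3 (0.106) or AHR KO FICZ replicates 1 (0.124) and 3 (0.114).

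Hsp90ab1 (ENSMUSG00000023944, chr17:45567775-45573271, minus strand), the constitutive cytosolic HSP90, stood at 92619 and 91660 normalised counts in WT DMSO and at 77968, 76850 and 76912 in WT FICZ. In AHR KO it stood at 86281 and 83880 under DMSO and at 72698 and 77290 under FICZ. Again the FICZ libraries lay below the DMSO libraries in each genotype. The fitted level fell to 0.838 in WT (0.768 to 0.915, adjusted p = 0.00805). In AHR KO it was 0.881 of the DMSO level (0.800 to 0.970, adjusted p = 0.0652) and was not called. The call in WT was lost with quantile normalization (log2 -0.13, adjusted p = 0.169) and without WT DMSO replicate 2 (adjusted p = 0.0742) or 3 (0.0573), and in AHR KO robust moderation gave an adjusted p of 0.0286 and the fit without WT FICZ replicate 2 one of 0.0365. The response differed between genotypes by -0.07 on the log2 scale (interval -0.26 to 0.12, adjusted p = 0.939).

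The 2 cytosolic forms did not fall in proportion in these libraries. Per kb, Hsp90aa1 stood at 0.213 to 0.225 of Hsp90ab1 in WT DMSO and 0.172 to 0.206 in WT FICZ, and at 0.251 to 0.267 in AHR KO DMSO and 0.220 to 0.238 in AHR KO FICZ. The ratio was lower with FICZ than with DMSO in each genotype without overlap, and higher in AHR KO than in WT under each treatment. These ratios are given with no test.

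Ptges3 (ENSMUSG00000071072, chr10:128058954-128077272, plus strand) encodes p23, the co-chaperone that stabilises HSP90 bound to its client. It stood at 6417 and 6474 normalised counts in WT DMSO, 5946, 6377 and 5817 in WT FICZ, 7111 and 7022 in AHR KO DMSO, and 6586 and 6604 in AHR KO FICZ. In each genotype the FICZ libraries lay below the DMSO libraries, and under each treatment AHR KO lay above WT. Groups this small can lie apart without a difference, and none of these separations was called in the main fit. The fitted FICZ change was 0.937-fold in WT (0.868 to 1.01, adjusted p = 0.186) and 0.933-fold in AHR KO (0.858 to 1.02, adjusted p = 0.228), neither of them called. The genotype difference was 1.10-fold under DMSO (adjusted p = 0.172) and 1.09-fold under FICZ (adjusted p = 0.105). Without WT FICZ replicate 2, Ptges3 was called lower with FICZ in WT (log2 -0.13, adjusted p = 0.0374) and higher in AHR KO than in WT under FICZ (0.17, adjusted p = 0.0189), and the latter also with quantile normalization (0.19, adjusted p = 0.032).

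Part of the Ptges3 signal is uncertain because of a copy. Ptges3-ps (ENSMUSG00000040078, chr6:85843980-85844459), a processed pseudogene, aligned to Ptges3 transcripts over 480 bases at 100% identity and stood at 925 and 892 normalised counts in WT DMSO, 433, 579 and 461 in WT FICZ, 998.0 and 984 in AHR KO DMSO, and 570.1 and 418 in AHR KO FICZ. Per kb, its ratio to Ptges3 was 0.637 to 0.666 in WT DMSO and 0.648 in both AHR KO DMSO libraries, against 0.336 to 0.419 in WT FICZ and 0.292 to 0.400 in AHR KO FICZ. The counts assigned to the copy thus stood lower with FICZ. Their change was -0.90 on the log2 scale in WT (SE 0.14, adjusted p = 0.00151) and -1.02 in AHR KO (SE 0.16, adjusted p = 0.00317). The copy matches Ptges3 over its whole annotated length, so reads there can be assigned to either gene. How the authors' counting shared them was not tested, so these counts need not be expression of the copy. With both summed, the FICZ change was -0.17 in WT (adjusted p = 0.0325) and -0.18 in AHR KO (adjusted p = 0.0478), whereas with the GC and length trend taken out Ptges3 alone turned to 0.07 and 0.08. Copies of Hsp90aa1 and Hsp90ab1 held at most 0.095% and 0.003% of the counts of gene and copies together.

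**Figure D2:**
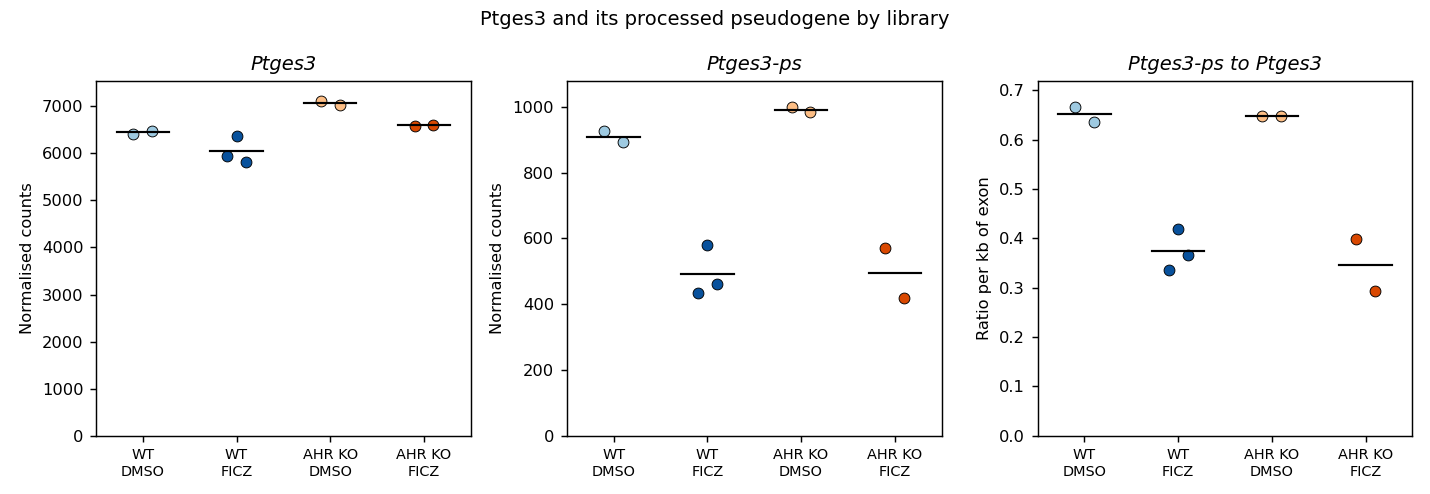
Normalised counts of Ptges3 and Ptges3-ps and their ratio per kb of exon in each library, by group, with lines at the group means and axes from 0. Ptges3 differs little between DMSO and FICZ, while Ptges3-ps lies between 892 and 998.0 in the 4 DMSO libraries and between 418 and 579 in the 5 FICZ libraries.

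The feedback inhibitors rose with FICZ in WT. The promoters of both are shown because these 2 genes rose with FICZ in WT. The 250 bases before the transcript start are given 5′ to 3′ on the gene's strand from RefSeq (GRCm38.p6), for Ahrr at chr13:74292332-74292581 (minus strand) and for Tiparp at chr3:65528197-65528446 (plus strand), with matches to the AHR core GCGTG, on either strand, in capitals (CACGC is the core on the opposite strand).
Ahrr: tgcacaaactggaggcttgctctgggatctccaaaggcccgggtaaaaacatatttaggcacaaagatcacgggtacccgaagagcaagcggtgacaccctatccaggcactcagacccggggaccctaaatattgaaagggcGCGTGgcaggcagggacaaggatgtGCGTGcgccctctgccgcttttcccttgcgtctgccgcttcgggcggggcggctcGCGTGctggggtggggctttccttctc
Tiparp: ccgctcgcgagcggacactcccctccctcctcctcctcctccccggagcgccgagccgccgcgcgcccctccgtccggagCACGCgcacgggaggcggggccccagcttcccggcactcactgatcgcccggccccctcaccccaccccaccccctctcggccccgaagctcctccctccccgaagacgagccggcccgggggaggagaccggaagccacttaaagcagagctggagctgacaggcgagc
The Ahrr window held 3 matches, which begin 107, 82 and 27 bases before the start, and the Tiparp window held 1, which begins 170 bases before it on the opposite strand. In the 250 bases before the start of 32851 windows, 28.16% held at least 1 match and 2.77% at least 3. Windows were found for 5 members. Ptges3 held 2 matches, Arnt 1 and Arnt2 none. The core GCGTG also lies within hypoxia response elements, and a match is a description of letters.

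Ahrr (ENSMUSG00000021575, chr13:74211118-74292331, minus strand) was almost silent under DMSO. It stood at 1.49 and 1.51 normalised counts in WT DMSO, about 3 reads over both libraries, and at 0 in both AHR KO DMSO libraries. With FICZ it stood at 568, 427 and 435 in WT and at 16.9 and 17.3 in AHR KO. All FICZ libraries lay above all DMSO libraries, and all WT FICZ libraries lay above both AHR KO FICZ libraries. The ratio of the untransformed means was 317 in WT (exact Poisson 95% interval 109 to 1539, for counting error in the WT DMSO reads only). The fit on log2(value + 1), which depends on the added constant, gave 189-fold (119 to 301, limma adjusted p = 1.75e-06). In AHR KO it rose at least 5.70-fold over a floor of 3 counts per library (adjusted p = 0.000474). AHR KO FICZ thus reached 3.59% of the WT FICZ mean (adjusted p = 6.4e-06), and 11.4 times the WT DMSO mean (interval 3.90 to 55.3).

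The difference between genotypes in the Ahrr response was 3.39 on the log2(value + 1) scale (SE 0.45, adjusted p = 0.01). Since AHR KO DMSO was at 0, its size depends on the added constant: it was 0.78 with 0.1 in place of 1 (adjusted p = 0.871). The call was kept in 17 of 20 settings and was also lost without WT FICZ replicate 1 (adjusted p = 0.0684) or 3 (0.0626). Under DMSO, Ahrr was called lower in AHR KO (adjusted p = 0.0336), but this sets about 3 reads against 0, no fold is given, and the call was kept in 8 of 21 settings. It was lost without each DMSO library in turn (adjusted p = 0.0922 to 0.108) and without each WT FICZ library in turn (0.0604 to 0.085).

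Set against the RNA of the receptor it represses, Ahrr RNA per kb reached 0.349 to 0.469 of Ahr in WT FICZ. With the longest transcripts as lengths this was 0.582 to 0.781. In WT DMSO it was 0.00115 to 0.00124 of Ahr, and in AHR KO FICZ 0.00765 to 0.00815. The 3 groups did not overlap.

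Tiparp (ENSMUSG00000034640, chr3:65528410-65555518, plus strand) had a substantial level before the ligand was added. It stood at 1485 and 1420 normalised counts in WT DMSO and at 4989, 5723 and 4923 in WT FICZ. In AHR KO it stood at 1164 and 1064 under DMSO and at 1304 and 1137 under FICZ. The WT FICZ libraries lay far above all others, and the AHR KO groups overlapped. The fitted rise was 3.58-fold in WT (3.15 to 4.07, adjusted p = 1.86e-06). In AHR KO the value was 1.09-fold (0.950 to 1.26, adjusted p = 0.353), which became 0.32 on the log2 scale and passed the threshold only once the trend with GC content and length was taken out (adjusted p = 0.0427).

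The Tiparp response differed between genotypes by 1.71 on the log2 scale (1.44 to 1.99, adjusted p = 0.000155), in all 20 settings. Under FICZ, AHR KO stood at 0.234 of the WT level (0.206 to 0.267, adjusted p = 2.7e-07). Under DMSO it stood at 0.767 (0.666 to 0.883, adjusted p = 0.0278), with no overlap of libraries. This last call was kept in 15 of 21 settings. It was lost without WT DMSO replicate 2 (adjusted p = 0.155) or 3 (0.0893) and without AHR KO DMSO replicate 1 (0.0706) or 3 (0.203). The gene 4931440P22Rik overlaps the start of Tiparp on the opposite strand with a mean of 27.0 normalised counts, and stood at 50.3 to 68.0 in WT FICZ against 3.78 to 28.3 in the other libraries. Strand use in the counting is not given in the sources used here, so reads of the overlap cannot be told apart.

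**Figure D3:**
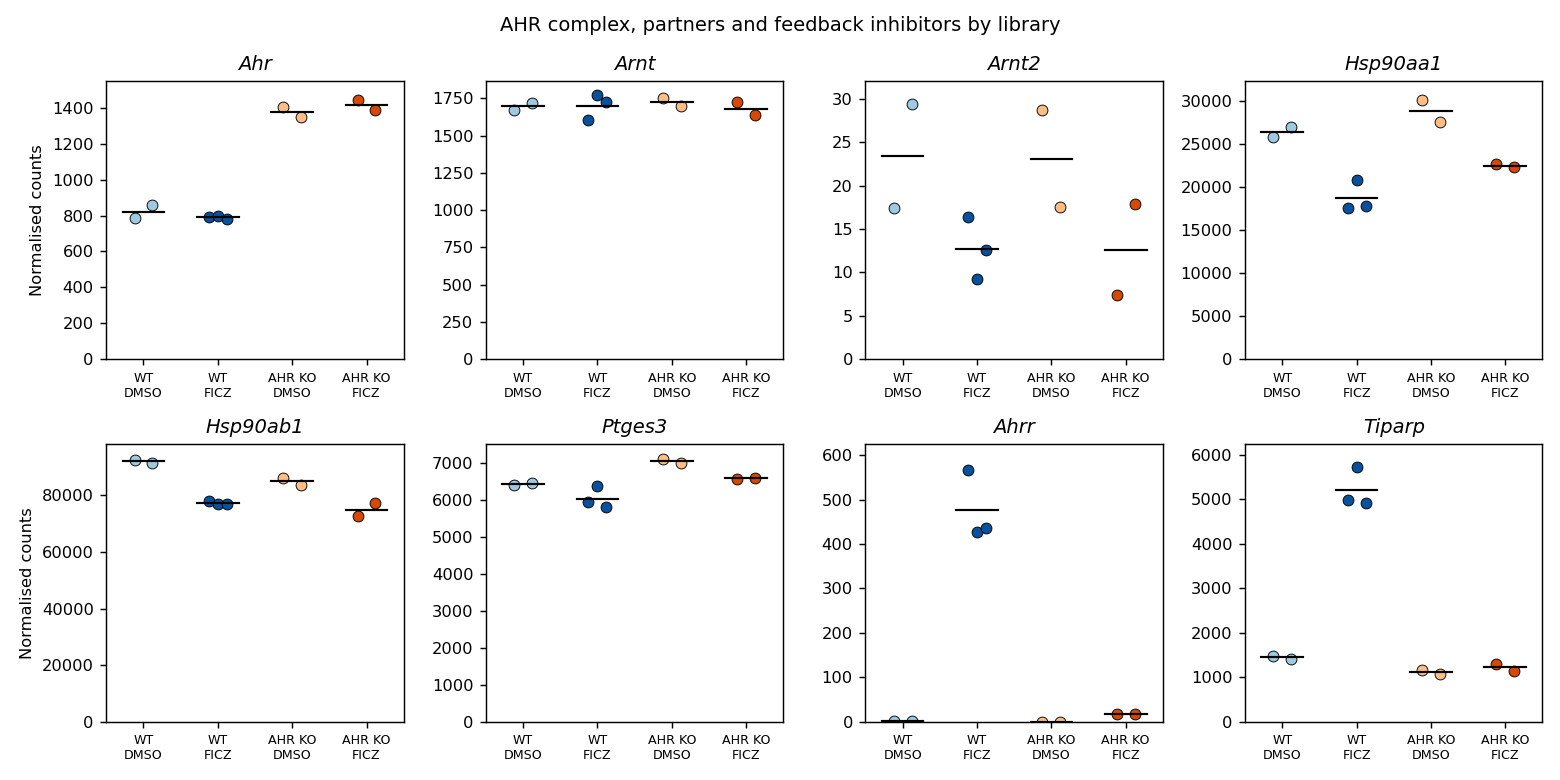
Normalised counts of the 8 genes in each of the 9 libraries, by group, with lines at the group means and axes from 0. Ahrr and Tiparp stand out in WT FICZ, Ahr is higher in all 4 AHR KO libraries, and Hsp90aa1 and Hsp90ab1 are lower with FICZ in both genotypes.

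Counted together, 4 of the 8 genes were called with FICZ in WT, Ahrr and Tiparp higher and Hsp90aa1 and Hsp90ab1 lower. Over all 12741 genes tested, 30.8% were called in that comparison, 15.1% higher and 15.7% lower. In AHR KO, Ahrr was called higher and Hsp90aa1 lower, 2 of 8, where 19.7% of all genes were called, 10.2% higher and 9.48% lower. With that trend in GC content and length taken out, 693 of all genes were called in AHR KO, of which 241 were higher, against 1301 of 2509 before it. Under that setting 2 of the 8 were called in AHR KO, Ahrr and Tiparp, where 5.45% of all genes were. For the difference between the genotypes in the FICZ response, 2 of 8 were called, Ahrr and Tiparp, where 0.447% of all genes were called. Ahrr was tested only because of its WT FICZ libraries, so its call is no support for a share among the members. Between genotypes, 3 of 8 were called under DMSO (Ahr, Ahrr and Tiparp, against 9.05% of all genes) and 4 of 8 under FICZ (the same 3 and Hsp90aa1, against 20.0%). The WT and AHR KO responses and the genotype differences share libraries with one another.

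**Figure D4:**
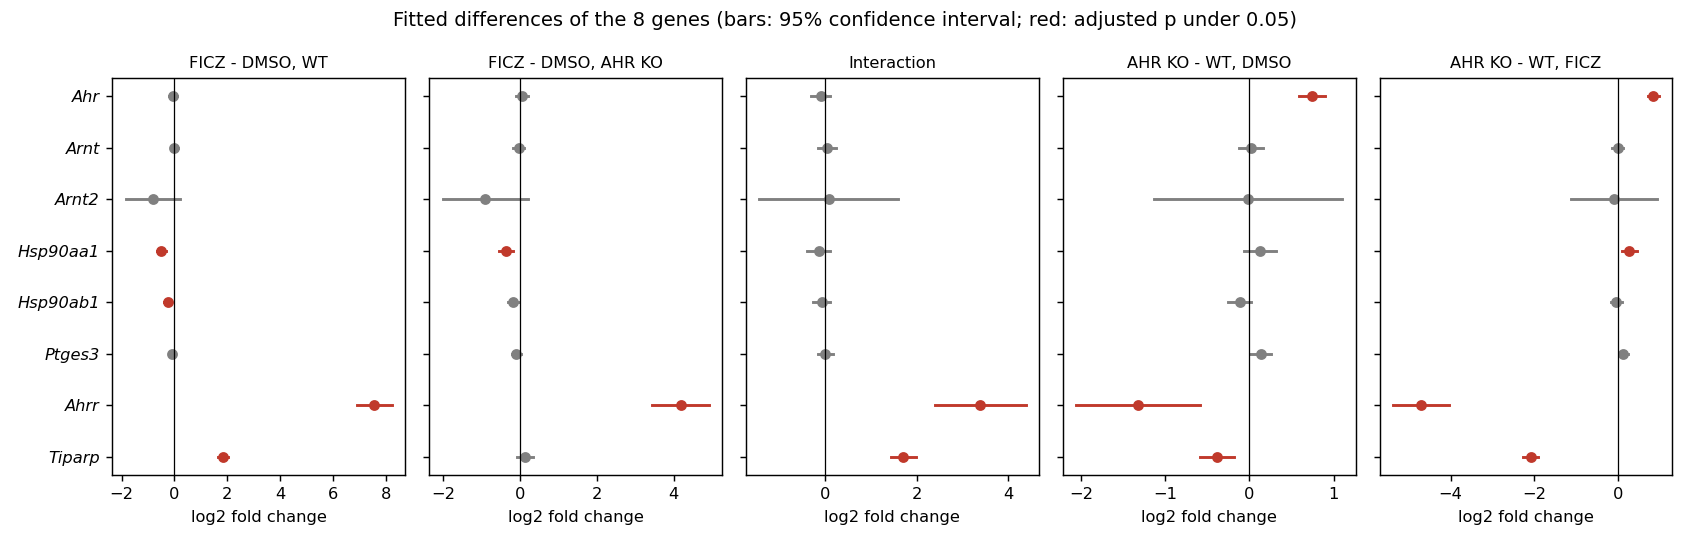
Fitted log2 fold changes of the 8 genes (points) with 95% confidence intervals (bars) in 5 comparisons, each panel with its own axis, red where the limma adjusted p was under 0.05. Only Ahrr and Tiparp are red in the panel of the difference between the genotypes in the FICZ response, and the bars of Arnt2 are wide.

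Other genes of the pathway were followed as lists. Of 23 further genes of the HSP90 chaperone machinery, 12 were called lower and 4 higher with FICZ in WT, where 15.7% of all genes were called lower and 15.1% higher, with a median of -0.21 on the log2 scale against -0.01 over all genes. In AHR KO, 7 were called lower and 3 higher (median -0.11 against -0.01), where 9.48% of all genes were called lower and 10.2% higher. St13, which links HSP70 to HSP90, fell most in WT, with 6968 ± 177 (SD, n = 2) normalised counts under DMSO and 4583 ± 197 (SD, n = 3) under FICZ (log2 -0.60, adjusted p = 0.000163), and changed by -0.60 in AHR KO (adjusted p = 0.00131). The cyclophilin Ppid fell in WT (-0.40, adjusted p = 0.000756) and in AHR KO (-0.38, adjusted p = 0.00359), and so did Hspa4, a nucleotide exchange factor of HSP70 (-0.39, adjusted p = 0.00112, and -0.45, adjusted p = 0.00236). The inducible HSP70 genes went the other way: Hspa1b rose by 0.48 in WT (adjusted p = 0.0012) and 0.44 in AHR KO (adjusted p = 0.00614), and Hspa1a by 0.45 and 0.55 (adjusted p = 0.00929 and 0.011), although these near-identical neighbours may share reads.

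With that trend in GC content and length taken out, 9 of the 23 were called lower in WT and 4 in AHR KO, where 10.1% and 3.56% of all genes were called lower. The count in WT was 7 without WT DMSO replicate 2 and 6 without replicate 3, where 7.42% and 8.77% of all genes were called lower. That in AHR KO was 3 without AHR KO DMSO replicate 1, where 1.44% of all genes were called lower. No gene of the list was called for a difference in response between genotypes by limma, and none had an unadjusted p under 0.05. Between genotypes, the phosphatase Ppp5c was lower in AHR KO under DMSO (-0.33, adjusted p = 0.0172) and under FICZ (-0.21, adjusted p = 0.041). Ppid was higher in AHR KO under FICZ (0.19, adjusted p = 0.0352). The call under DMSO was lost without WT DMSO replicate 2 or 3 or AHR KO DMSO replicate 1. Both calls under FICZ were lost without WT DMSO replicate 2 or 3, WT FICZ replicate 1 or 3, or AHR KO FICZ replicate 3. They were also lost without a filter on low values and in a fit to only the groups compared.

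**Figure D5:**
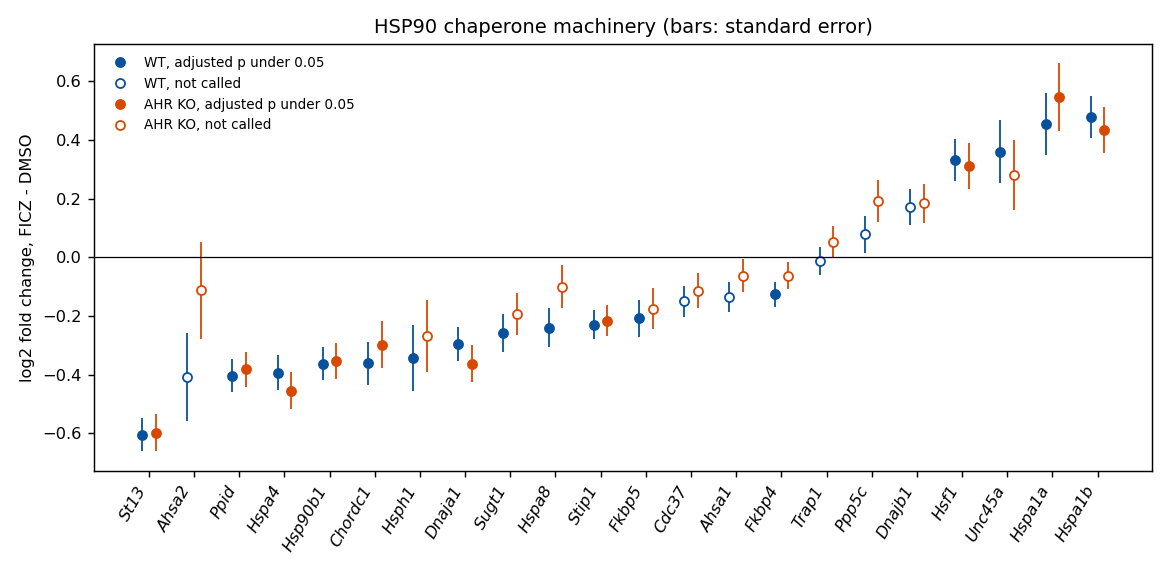
Fitted log2 fold changes with FICZ of genes of the HSP90 chaperone machinery in WT and AHR KO, ordered by the value in WT, with bars of 1 standard error and filled points where the limma adjusted p was under 0.05. St13 is lowest at -0.60 in WT and -0.60 in AHR KO, and Hspa1b reaches 0.48 and 0.44.

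Of 18 other genes of the bHLH-PAS family and its coactivators, to which AHR and ARNT belong, 13 were tested. With FICZ, 4 were called lower in WT and 3 in AHR KO, and none higher. Of all genes, 15.7% in WT and 9.48% in AHR KO were called lower, and 30.8% and 19.7% in either direction. Among the genes called, the circadian factors Arntl2 (-0.89, adjusted p = 0.0106) and Clock (-0.37, adjusted p = 0.00117) fell most in WT. Hif1a, the hypoxia factor that shares ARNT, was called lower both in WT (-0.36, adjusted p = 0.000574) and in AHR KO (-0.31, adjusted p = 0.0037). Its normalised counts were 7756 ± 220.0 (SD, n = 2) in WT DMSO, 6063 ± 138 (SD, n = 3) in WT FICZ, 7171 ± 170.1 (SD, n = 2) in AHR KO DMSO and 5774 ± 21.02 (SD, n = 2) in AHR KO FICZ. The coactivator Ncoa2 fell by 0.52 in AHR KO (adjusted p = 0.0073). Under FICZ, Arntl2 was higher (0.71, adjusted p = 0.0381) and Ncoa2 lower (-0.33, adjusted p = 0.0265) in AHR KO than in WT. Both of these calls were lost without WT FICZ replicate 1 or AHR KO FICZ replicate 1 or 3. The count with FICZ in WT was 2 without WT DMSO replicate 2, where 15.6% of all genes were called. That in AHR KO was 0 without AHR KO DMSO replicate 1, where 3.29% of all genes were called. With that trend in GC content and length taken out, 4 genes were called in WT and 1 in AHR KO, where 18.2% and 5.45% of all genes were, in either direction.

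Of 15 other genes of the PARP family, to which Tiparp belongs, 2 were called higher and 3 lower with FICZ in WT, and 1 higher and 1 lower in AHR KO. Of all genes, 30.8% and 19.7% were called, so these counts do not set the family apart. The count in WT was 2 without WT DMSO replicate 3, where 17.8% of all genes were called. In AHR KO the count was 0 without AHR KO DMSO replicate 1 or AHR KO FICZ replicate 3, where 3.29% and 9.55% were. Parp4 (0.26, adjusted p = 0.0179) and the tankyrase Tnks (0.24, adjusted p = 0.0104) rose in WT, and Parp2 (-0.29, adjusted p = 0.029) and Parp1 (-0.22, adjusted p = 0.00694) fell. In AHR KO, Parp10 rose (0.55, adjusted p = 0.0173) and Parp2 fell (-0.33, adjusted p = 0.0388). Under FICZ, Tnks2 was higher (0.18, adjusted p = 0.0435) and Parp4 (-0.40, adjusted p = 0.00269) and Zc3hav1 (-0.15, adjusted p = 0.0377) were lower in AHR KO than in WT. In that comparison 1 gene was called without any single DMSO library and without WT FICZ replicate 1 or 3. It was also 1 without a filter on low values and in a fit to only the groups compared. The largest of the called PARP changes with FICZ in WT was well below the 1.84 of Tiparp on the same scale. With the GC and length trend removed, the number called was 3 in WT and 0 in AHR KO, where 18.2% and 5.45% of all genes were, in either direction. Without that removal 4 of the PARP genes had an unadjusted p under 0.05 in AHR KO, as had 4371 of all 12741 genes.

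Of 15 coregulators of AHR and AHRR, 5 were called higher and 2 lower with FICZ in WT, and 2 higher and 1 lower in AHR KO, against 30.8% and 19.7% of all genes called. The histone deacetylase genes Hdac5 (0.91, adjusted p = 0.0463) and Hdac4 (0.60, adjusted p = 0.00259) rose most in WT, and the coactivator Ncoa2 (-0.30, adjusted p = 0.0306) and the corepressor Nrip1 (-0.23, adjusted p = 0.0182) fell. In AHR KO, the acetyltransferase Ep300 rose (0.33, adjusted p = 0.0142). Under FICZ, Ncor1 (-0.39, adjusted p = 0.0178) and Sin3a (-0.37, adjusted p = 0.0488) were the lowest of 3 called lower in AHR KO than in WT. With that trend in GC content and length taken out, 4 were called in WT and 2 in AHR KO, where 18.2% and 5.45% of all genes were, in either direction.

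Of 8 genes for AHR turnover and nuclear export, 2 were called lower with FICZ in each genotype and none higher. Of all genes, 15.7% in WT and 9.48% in AHR KO were called lower, and 30.8% and 19.7% in either direction. The 2 called were the ubiquitin ligase scaffold Cul4b (-0.37 in WT, adjusted p = 0.0013, and -0.32 in AHR KO, adjusted p = 0.00746) and the exportin Xpo1 (-0.20, adjusted p = 0.0378, and -0.27, adjusted p = 0.0235). Cul4b was higher in AHR KO than in WT under FICZ (0.21, adjusted p = 0.0223). The calls in AHR KO fell to 0 once the GC and length trend was removed, where 5.45% of all genes were called. Without that removal 5 of the 8 genes had an unadjusted p under 0.05 in AHR KO, as had 4371 of all 12741. In none of these last 4 lists was a gene called for a difference in response by limma, and 1 PARP gene had an unadjusted p under 0.05 there.

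The genes whose log2 values ran most closely with those of 3 members over the 9 libraries were picked from 10975 genes with a mean of 50 or more, as a description. With Ahr these were Gm6472 (Pearson r = 0.995), Cd99l2 (0.993) and Ccdc9b (0.990). Ccdc9b stood at 188 to 197 normalised counts in WT DMSO and 172 to 178 in WT FICZ, and at 396 to 404 in AHR KO DMSO and 386 to 407 in AHR KO FICZ. All 3 were higher in the AHR KO libraries, as was Ahr.

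With Ahrr the closest were Arhgap27 (r = 0.997), C77080 (0.992) and Mboat7 (0.990). Arhgap27 stood at 1676 ± 39.9 (SD, n = 2) normalised counts in WT DMSO, 3106 ± 159 (SD, n = 3) in WT FICZ, 1493 ± 48.8 (SD, n = 2) in AHR KO DMSO and 2055 ± 20.6 (SD, n = 2) in AHR KO FICZ.

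With Tiparp the closest were Neurl3 (r = 0.996), Chp1 (0.996) and Exoc3 (0.995). Exoc3, an exocyst subunit gene at chr13:74169488-74208732 on the minus strand, lies 2385 bases beyond the end of Ahrr in its direction of transcription. It stood at 1741 ± 52.3 (SD, n = 2) normalised counts in WT DMSO, 3291 ± 64.8 (SD, n = 3) in WT FICZ, 1562 ± 0.326 (SD, n = 2) in AHR KO DMSO and 1542 ± 38.0 (SD, n = 2) in AHR KO FICZ. These correlations were taken over libraries that share 4 groups, and the ranking has no test.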

How the data were processed

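RNA-seq libraries were made by the authors from ribosomal RNA-depleted, stranded preparations. The authors deposited normalised counts, a signal that is never negative and not whole, for 48795 genes. The submitters' processing notes name STAR 2.5.2a, RSEM 1.2.31, DESeq2 1.16.1 and GRCm38, whereas the methods of the study name summarizeOverlaps and mm10. The deposited table is itself named as RSEM normalised data. Why the methods name another counting tool is not given in the sources used here. Only 59.6 to 67.0% of low values lay within 0.1 of whole reads, so no count model was used.

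Identifiers were matched to GENCODE M21 (99.3%). Values were transformed as log2(value + 1), genes with a mean of 10 or more (12741) were kept, and limma 3.58.1 (R 4.3.3, lmFit, eBayes with trend) was fitted to 9 libraries with 4 groups, with 5 two-sided contrasts and Benjamini-Hochberg adjustment over all genes. A gene was called at an adjusted p under 0.05. Fitted fold changes are on the log2(value + 1) scale, which understates low genes. For Ahrr, ratios of untransformed means are given too, beside p-values from the fitted scale. Every adjusted p in the text comes from this model or a stated alternative, and p-values measure the spread between these libraries. Intervals and floors on reads cover counting error only. The fits were tested on simulated data with independent normal noise around each gene's mean. Those data held no trend with GC content or length and no shared organoid line, so the test does not cover these.

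Genes named were all members, near-identical copies (at least 90% identity over 300 bases), up to 2 called genes at each end of each list and comparison, and the 3 genes closest to Ahr, Ahrr and Tiparp. The members and lists were chosen with earlier results of these data known. The gene 4931440P22Rik was named because it overlaps Tiparp. Some genes that the rule names are not reported here.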

Additional observations from a re-analysis of the deposited data

Results flagged for a closer look

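Ahrr and Tiparp drew attention because their FICZ responses differed between genotypes in a test of the difference itself. For Ahrr the response in WT minus that in AHR KO was 3.385 on the log2(value + 1) scale (adjusted p = 0.01), with both genotypes called higher and AHR KO DMSO at 0. Ahrr was tested only because of its WT FICZ libraries, and with a pseudocount of 0.1 the difference was 0.777 (adjusted p = 0.871). For Tiparp it was 1.71 (adjusted p = 0.000155), with a called rise in WT and a value of 0.13 in AHR KO (adjusted p = 0.353). No group held 4 or more libraries, so single libraries that stand apart were not tested.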

How the results depend on the processing

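Of 827 alternative values for the 8 genes, 757 kept their direction and side of the threshold, 35 lost a call, 8 gained one and 27 changed sign, none of these last a call. The number of members called for the difference in response was 1 with a pseudocount of 0.1, and that between genotypes under DMSO was 1 without a filter on low values and 1 with quantile normalization. Leaving out 1 library gave 1 to 3 members called with FICZ in AHR KO, 1 to 2 for the difference in response and 1 to 3 between genotypes under DMSO, and 6 to 12 (WT) and 3 to 8 (AHR KO) chaperone genes called lower. Removing the GC and length trend left 4 of these in AHR KO. The list counts were rerun after seeing the data, and the cause of these shifts was not tested.

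Sign changes were small except for Arnt2. With quantile normalization the Ptges3 difference in response was -0.013 and Arnt between genotypes under FICZ 0.014. With the GC and length trend removed, Ahr was 0.028 and Ptges3 0.072 with FICZ in WT, Arnt 0.004 and Ptges3 0.077 in AHR KO, and the Ptges3 difference in response -0.004. Over single libraries left out, the FICZ change in WT ranged from -0.12 to 0.007 for Ahr and -0.029 to 0.041 for Arnt, the difference in response from -0.51 to 0.67 for Arnt2 and -0.033 to 0.034 for Ptges3, and the genotype difference under DMSO from -0.001 to 0.047 for Arnt and -0.38 to 0.35 for Arnt2, and under FICZ from -0.055 to 0.021 for Arnt, -0.69 to 0.50 for Arnt2 and -0.087 to 0.001 for Hsp90ab1.

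Whether equal replicate numbers mark the same organoid line is not given. Deviations of same-numbered libraries correlated at only 0.035 to 0.05. In 8 of 8 libraries the best correlation was with the same-numbered partner, but in groups of 2 the deviations mirror each other, so these are not 8 independent signs. The block was kept as an alternative. The organoid line as a random effect (consensus correlation 0.058) changed no call of the 8 genes. With the replicate number as a block the Arnt2 difference in response was -0.013 and the lower Ahrr in AHR KO DMSO lost its call (-1.44, adjusted p = 0.0779). The block changed no other call of the 8 genes.

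Over all genes, removing the GC and length trend lowered the calls with FICZ from 3928 to 2309 in WT and from 2509 to 693 in AHR KO. Calls in WT were 1993 without WT DMSO replicate 2 and 2264 without replicate 3. Those in AHR KO were 419 without AHR KO DMSO replicate 1, 1256 without replicate 3, 1558 without AHR KO FICZ replicate 1 and 1214 without replicate 3. The difference in response had 57 calls and 23 to 78 with 1 library left out, AHR KO against WT 1153 and 389 to 1473 under DMSO, and 2544 and 1324 to 3089 under FICZ. A fit to only the groups compared gives no difference in response, and a mean of 100 or more drops Arnt2. Depth limits the DMSO level of Ahrr. With 2 or 3 libraries a group, small changes may go undetected.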
